A study of Rattus norvegicus with 24 samples.

Results

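The genes described here are the secreted angiogenic factors and the endothelial receptors that bind them, chosen by name: Vegfa, Angpt1, Angpt2 and Apln among the ligands, Flt1, Kdr and Tek among the receptors, the oxygen-regulated transcription factor Hif1a, and the endothelial adhesion molecule Pecam1. Of these 9 genes, 8 had a row among the 21067 genes of the deposited expression table and all 8 were among the 14772 genes tested. Pecam1 was not analysed here. RNA was sequenced from the quadriceps muscle of Sprague-Dawley rats of both sexes, obtained at 6 weeks of age and assigned to 4 groups of 6 libraries. Control rats were fed normally and received no treadmill training. Treadmill rats trained for several weeks at rising speed and finally ran to exhaustion. Catgut 1 rats had collagen thread embedded at the hind-limb acupoints Qian Shen, Yang Wa, Han Gou and Xie Qi and at Bai Hui on the back and Qiang Feng behind the shoulder before the same training, and catgut 2 rats had thread at Fei Shu as well. Every rat, controls included, had first been habituated to the treadmill. Both catgut groups also ended with the run to exhaustion, and muscle was taken after that final session. Effects of the training and of the last run cannot be told apart in the comparisons with control. The thread lay under the skin and in muscle, and a group with embedding but no training was not part of the design. The study's methods state equal numbers of males and females in each group, but the sex of each rat is not in the labels. Y-linked transcripts were high in 3 of 6 libraries of control, treadmill and catgut 1. In catgut 2 they were high in 2 of 6, which differs from the stated balance.

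New capillaries are formed when endothelial cells respond to secreted factors. Vegfa, made by muscle fibres among other cells, binds the receptors Flt1 and Kdr on endothelial cells. Kdr carries most of the growth signal, whereas Flt1 binds the ligand tightly, signals weakly and also exists as a soluble decoy. Angpt1 activates the receptor Tek and keeps vessels quiescent, Angpt2 mostly opposes it on the same receptor and loosens vessels, and Apln is a small peptide that acts through the receptor Aplnr. Hif1a is the subunit of a transcription factor that is degraded when oxygen is plentiful, so that its activity is set largely by protein stability rather than by transcript level. Endurance exercise is known to induce Vegfa and capillary growth in skeletal muscle.

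Each library was described by counts per gene and by FPKM, a fragment count scaled to transcript length and to the mapped depth of the library. Counts summed to between 45945938 and 78278080 per library, and values of 4 and 8 were the commonest counts, so that about 4 counts stood for 1 fragment. The lowest count of any of the 8 genes in any library was 45, in Angpt1. As a check of the tissue, 17 of 18 endothelial markers had a row, all 17 were tested, and the defining marker Cdh5 had a median of 20.2 FPKM in control, 21.5 in treadmill, 23.6 in catgut 1 and 29.4 in catgut 2 libraries. The libraries also differed in muscle fibre type and in admixed transcripts. Myh7, the slow-fibre myosin, ranged from 0.0984 to 417 FPKM, with medians of 12 in control, 67.8 in treadmill, 131 in catgut 1 and 110 in catgut 2. The liver transcript Alb reached 135 FPKM in a control library and 226 FPKM in a treadmill library, and its highest value in either catgut group was 0.268. In bulk tissue, fewer endothelial cells and less RNA per endothelial cell cannot be told apart.

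Vegfa was by far the most abundant of the 8 transcripts per unit length, with a mean of 51.2 FPKM over the 24 libraries that exceeded 92.4% of the genes tested. Flt1 followed at 8.73 FPKM, Tek at 6.91, Kdr at 6.69, Angpt2 at 6.10 and Hif1a at 3.91. Angpt1 at 1.11 and Apln at 0.826 FPKM were the lowest. Flt1, Tek, Kdr, Angpt2 and Hif1a each lay within 1 standard deviation of the next in this order, as did Angpt1 and Apln. Vegfa stood clear above the others, and the lowest Hif1a value of 2.43 FPKM lay above the highest Angpt1 value of 1.88.

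**Figure D1:**
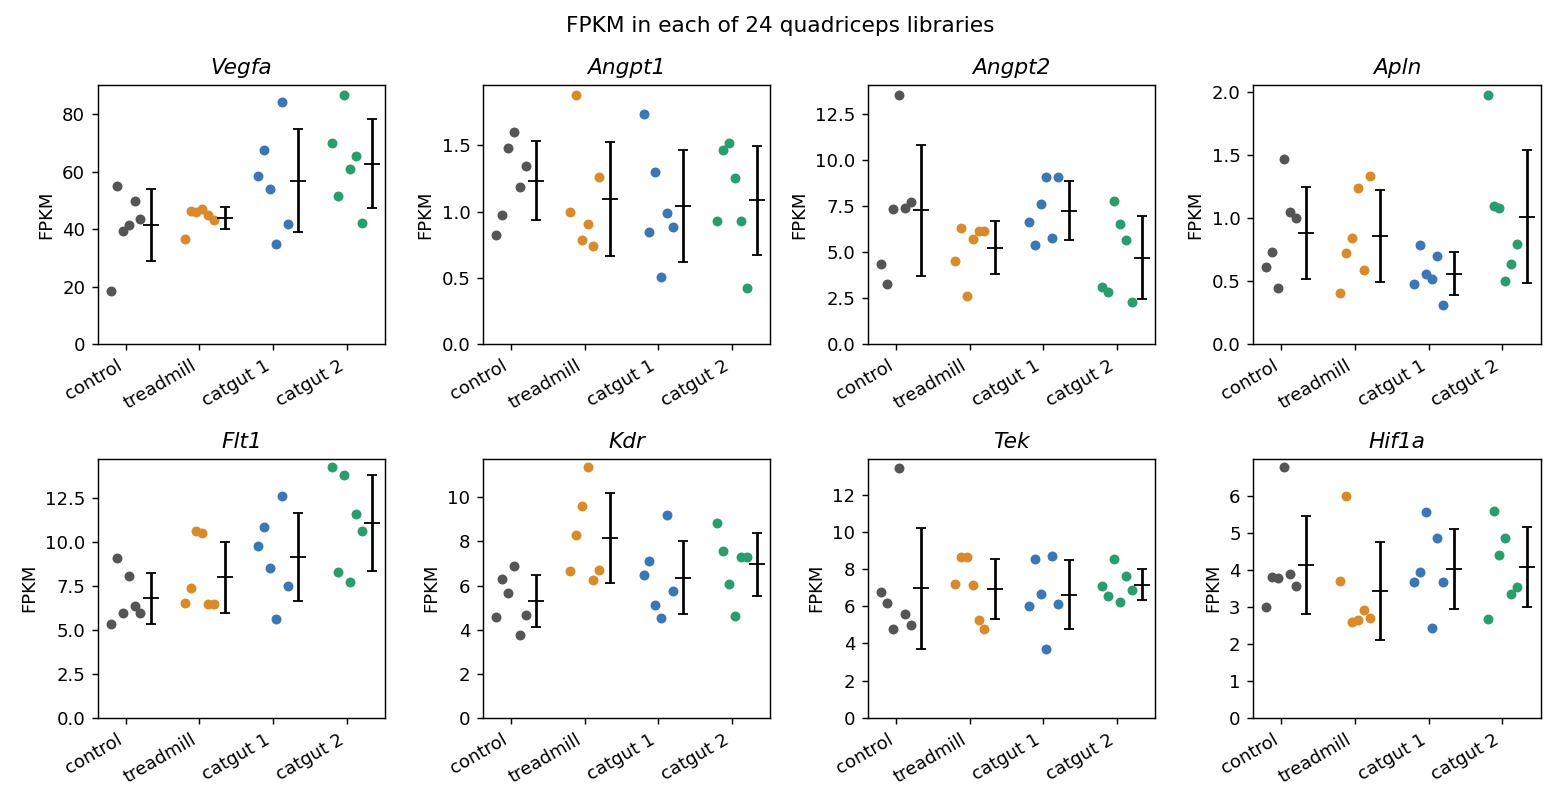
FPKM (y axis, linear from 0) of each of the 8 genes in each library, by group, with the mean and standard deviation of the 6 libraries drawn beside the points. Vegfa and Flt1 means were highest in catgut 2 (62.7 and 11.0 FPKM), the Kdr mean was highest in treadmill (8.15 FPKM), and the points of every pair of groups overlap in every panel.

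Of the 48 tests of the 8 genes between 6 pairs of groups, 6 met the criterion of the study, group means of FPKM that differ by more than 1.5 times in either direction at p under 0.05 before adjustment, with p taken here from edgeR's quasi-likelihood test on the counts. Kdr met it in treadmill against control, Apln in catgut 1 against control, Flt1 and Vegfa in catgut 2 against control, and Apln and Angpt2 in catgut 2 against catgut 1. No gene met it in either catgut group against treadmill. Among all genes tested, the criterion called 2.85% in treadmill against control, 3.12% in catgut 1 against treadmill, 3.76% in catgut 2 against treadmill, 4.62% in catgut 1 against control, 5.96% in catgut 2 against control and 1.25% in catgut 2 against catgut 1. After Benjamini-Hochberg adjustment over the 14772 genes, 0 of the 48 edgeR tests had an adjusted p under 0.05, with 9 under 0.05 before adjustment. Before adjustment, 9.12% of all genes had p under 0.05 in treadmill against control, 6.93% and 10.7% in catgut 1 and catgut 2 against treadmill, 9.84% and 16.4% in catgut 1 and catgut 2 against control, and 3.26% in catgut 2 against catgut 1. The 8 genes had 1, 0, 1, 2, 3 and 2 such tests in the same order. DESeq2 called Kdr in treadmill against control (adjusted p = 0.0399) and Flt1 in catgut 2 against control (adjusted p = 0.0131), and limma on log2(FPKM + 1) called 0. DESeq2 called 0.765% and 4.6% of all genes in these 2 comparisons. By the edgeR adjusted p, the share of all genes called was 0.0542% in treadmill against control, 0.0474% and 0.237% in catgut 1 and catgut 2 against treadmill, 0.0203% and 0.508% in catgut 1 and catgut 2 against control, and 0.00677% in catgut 2 against catgut 1. The median log2 fold change of the 8 genes was 0.039 in treadmill against control, 0.035 and 0.126 in catgut 1 and catgut 2 against treadmill, 0.0074 and 0.162 in catgut 1 and catgut 2 against control, and 0.138 in catgut 2 against catgut 1, where the medians of all genes tested lay between -0.012 and 0.007. In none of the 48 pairs did all 6 libraries of one group lie beyond all 6 of the other. The 2 catgut comparisons against treadmill share the treadmill libraries, and the 3 comparisons against control share the control libraries.

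A single edgeR test for any difference among the 4 groups gave the smallest p for the VEGF axis. Its adjusted p was 0.253 for Flt1, 0.276 for Kdr and 0.337 for Vegfa (0.0139, 0.0186 and 0.0329 before adjustment). The other 5 genes lay between 0.107 and 0.911 before adjustment. Of the 8 genes, 0 had an adjusted p under 0.05 here by edgeR, DESeq2 or limma, and this test called 0.379% of all genes, with 13% under 0.05 before adjustment.

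Vegfa (chr9:17340341-17355681, plus strand, coordinates as the table lists them) encodes the main angiogenic growth factor of muscle. Its lowest, median and highest values were 18.5, 42.6 and 55.1 FPKM in control, 36.7, 45.4 and 47.1 in treadmill, 34.9, 56.2 and 84.3 in catgut 1, and 42.1, 63.1 and 86.7 in catgut 2. The treadmill libraries were tightly grouped, whereas both catgut groups reached far above them, with 5 of 6 catgut 2 libraries and 4 of 6 catgut 1 libraries above every treadmill library.
The group means were 41.3 ± 12.6 FPKM in control, 44.0 ± 3.85 in treadmill, 56.8 ± 17.8 in catgut 1 and 62.7 ± 15.4 in catgut 2 (SD, n = 6 each). Against treadmill, the edgeR log2 fold change was 0.48 ± 0.16 (SE) in catgut 2, with p = 0.0103 and an adjusted p of 0.268, and a two-sided exact permutation test of log2(FPKM + 1) gave p = 0.0173, where 0.00216 is the smallest p that 6 against 6 libraries allow. The ratio of means was 1.43, below the limit of 1.5. Against control, catgut 2 was higher by 0.60 ± 0.23 on the log2 scale (edgeR p = 0.0237, adjusted p = 0.226, exact permutation p = 0.0238), a ratio of 1.52. Catgut 1 differed from treadmill by 0.32 ± 0.17 and from control by 0.45 ± 0.24, with adjusted p of 0.788 and 0.567, and treadmill differed from control by 0.13 ± 0.21. The difference between catgut 2 and control had an edgeR p of 0.0560 without catgut 2 replicate 1, 0.0559 without catgut 2 replicate 3, 0.0626 with the replicate number as a block, 0.0519 with the endothelial marker level as a covariate and 0.107 with Myh7 as a covariate. The difference from treadmill kept an edgeR p under 0.05 when any 1 of the 12 libraries was left out. Over the 24 libraries the Spearman correlation of Vegfa with Myh7 was 0.48, and the part of fibre type in these differences was not tested beyond that covariate.

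Flt1 (chr12:9034308-9205905, plus strand) encodes the high-affinity Vegfa receptor. From lowest over median to highest, it measured 5.35, 6.16 and 9.08 FPKM in control, 6.44, 6.94 and 10.6 in treadmill, 5.62, 9.11 and 12.6 in catgut 1, and 7.70, 11.1 and 14.3 in catgut 2. The medians ran in the order control, treadmill, catgut 1, catgut 2, and 4 of 6 catgut 2 libraries lay above every control library.
Flt1 means were 6.79 ± 1.45, 7.97 ± 2.02, 9.12 ± 2.48 and 11.0 ± 2.73 FPKM in that order (SD, n = 6 each). Between neighbours in this order the log2 fold changes were 0.27 ± 0.18, 0.15 ± 0.20 and 0.30 ± 0.21 (SE). Their edgeR p was 0.149, 0.463 and 0.179 before adjustment. Catgut 2 was higher than control by 0.72 ± 0.19 on the log2 scale, a ratio of 1.63 (edgeR p = 0.00266, adjusted p = 0.117, exact permutation p = 0.0108). Against control, catgut 1 gave 0.42 ± 0.17 (edgeR p = 0.0281, adjusted p = 0.457, exact permutation p = 0.0866), and without any 1 of 6 of the 12 libraries (control replicates 1, 3 and 5, catgut 1 replicates 1, 2 and 5) its edgeR p rose to between 0.0524 and 0.0673, and with Myh7 as a covariate it was 0.0954. Against treadmill, catgut 2 gave 0.45 ± 0.22 (adjusted p = 0.503, exact permutation p = 0.0541).

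Kdr (chr14:34727623-34787183, plus strand) encodes the main signalling receptor for Vegfa, and its pattern over the groups was another one. Values ran, lowest to median to highest, through 3.76, 5.17 and 6.90 FPKM in control, 6.24, 7.49 and 11.4 in treadmill, 4.54, 6.11 and 9.20 in catgut 1, and 4.63, 7.32 and 8.82 in catgut 2. The control libraries were the lowest group and the treadmill libraries the highest, with 3 of 6 treadmill libraries above every control library and the other 3 within the control range.
Kdr means were 5.31 ± 1.18, 8.15 ± 2.03, 6.36 ± 1.67 and 6.96 ± 1.43 FPKM in control, treadmill, catgut 1 and catgut 2 (SD, n = 6 each). Treadmill was higher than control by 0.66 ± 0.18 on the log2 scale, a ratio of 1.53 (edgeR p = 0.00245, adjusted p = 0.354, exact permutation p = 0.0152). The edgeR p stayed under 0.05 without any 1 of the 12 libraries, but the ratio fell below 1.5 without control replicate 1, 5 or 6 or treadmill replicate 3 or 4. Leukocyte markers had positive log2 fold changes in the same comparison for 9 of 9 genes, 1 of them meeting the criterion, with summed levels of 23.8 to 69.6 FPKM in control and 20.7 to 114 FPKM in treadmill and the defining marker Ptprc at 0.927 FPKM or less, and their part in the Kdr difference was not tested. Red blood cell markers met the criterion as higher in treadmill for 4 of 5 tested entries (2 of Hba-a2, Hbb and Alas2, log2 fold changes of 0.87 to 1.02), with summed levels of 309 to 577 FPKM in control and 446 to 1738 FPKM in treadmill, and their part was not tested either. Catgut 2 was higher than control by 0.41 ± 0.18 (edgeR p = 0.0426, adjusted p = 0.282, exact permutation p = 0.0584), and without any 1 of 8 of the 12 libraries (control replicates 1, 3, 5 and 6, catgut 2 replicates 1, 2, 5 and 6) its edgeR p lay between 0.0530 and 0.117. Against treadmill, catgut 1 gave -0.39 ± 0.19 and catgut 2 gave -0.24 ± 0.21, with adjusted p of 0.730 and 0.753.

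**Figure D2:**
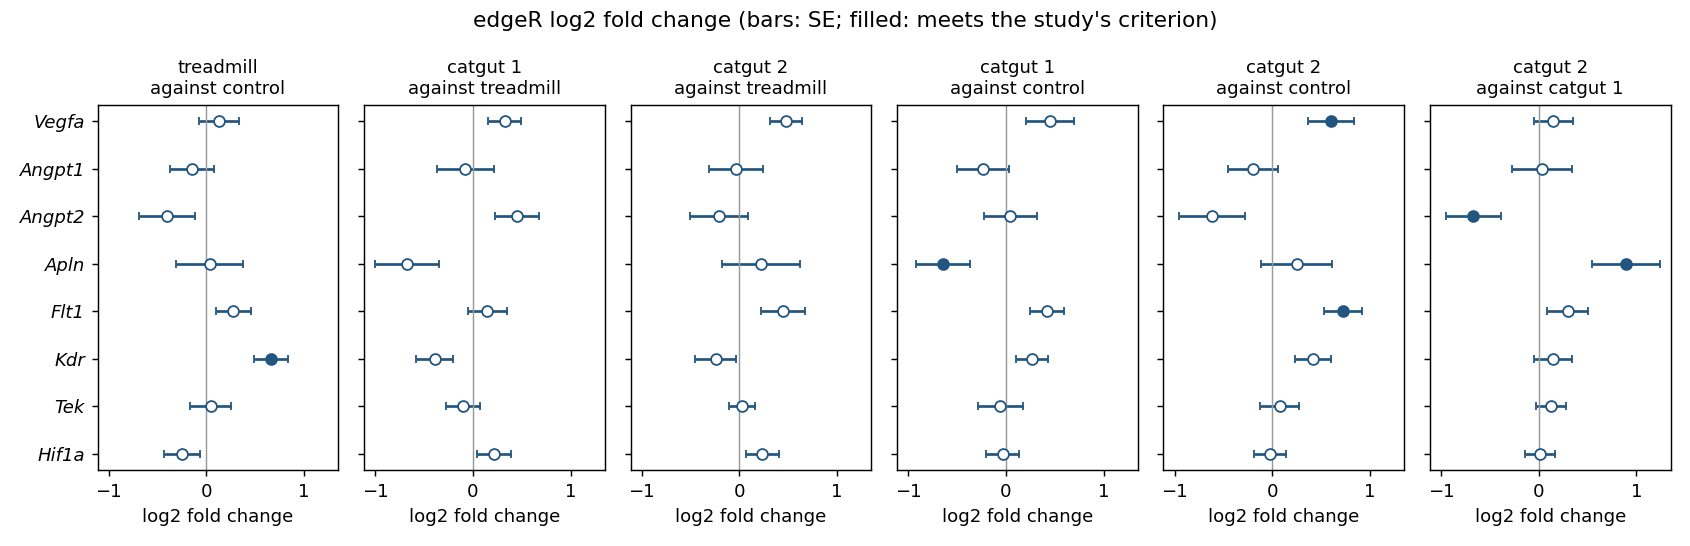
edgeR log2 fold change of each gene (x axis) in each of the 6 comparisons (panels), with bars for 1 standard error. Filled points meet the criterion of the study (group means more than 1.5 times apart, p under 0.05 before adjustment), and they are Kdr in the first panel, Apln in the fourth, Vegfa and Flt1 in the fifth, and Angpt2 and Apln in the last.

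The promoters of the VEGF axis are shown because Vegfa, Flt1 and Kdr had the smallest p among the 8 genes for a difference among the groups and because Flt1 and Vegfa varied together. They are the 250 bases before the RefSeq start site on GRCr8, read 5′ to 3′ on the gene's strand, at chr9:22452604-22452853 for Vegfa, chr12:12333180-12333429 for Flt1 and chr14:32571813-32572062 for Kdr, and capitals mark the hypoxia response core, searched as ACGTG or GCGTG on both strands.
Vegfa: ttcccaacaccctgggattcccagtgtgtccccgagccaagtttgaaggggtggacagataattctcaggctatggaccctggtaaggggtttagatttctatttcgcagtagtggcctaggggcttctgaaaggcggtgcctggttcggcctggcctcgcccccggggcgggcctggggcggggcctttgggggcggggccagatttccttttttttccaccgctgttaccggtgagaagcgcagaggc
Flt1: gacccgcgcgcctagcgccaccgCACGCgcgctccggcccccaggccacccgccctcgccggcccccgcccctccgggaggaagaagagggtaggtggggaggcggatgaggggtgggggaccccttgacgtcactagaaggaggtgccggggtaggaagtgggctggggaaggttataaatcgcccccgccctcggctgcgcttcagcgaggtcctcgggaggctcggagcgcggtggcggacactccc
Kdr: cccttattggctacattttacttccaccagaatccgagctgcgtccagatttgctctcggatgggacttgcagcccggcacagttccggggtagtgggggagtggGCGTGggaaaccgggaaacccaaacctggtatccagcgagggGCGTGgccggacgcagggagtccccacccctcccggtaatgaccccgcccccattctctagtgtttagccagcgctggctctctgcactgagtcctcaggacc
Flt1 had 1 match, CACGC at base -227 from the start site, and Kdr had 2 matches, GCGTG at bases -145 and -103. Over the full windows of 300 bases, which run to 50 bases past the start, 5 of the 8 genes were listed with 6 windows in all. Hif1a had 3 matches, of which 2 overlap, and Apln and both windows of Vegfa had 0. Of 33469 promoter windows, 41.6% held at least 1 match, so a match of these letters is common. Bases outside the windows were not searched, so 0 matches in a window says nothing of sites farther away.

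Tek (chr5:113725717-113852799, plus strand) encodes the angiopoietin receptor and was the flattest of the receptors. The lowest, median and highest Tek values were 4.76, 5.89 and 13.4 FPKM in control, 4.79, 7.14 and 8.64 in treadmill, 3.67, 6.38 and 8.72 in catgut 1, and 6.23, 6.97 and 8.55 in catgut 2. The ranges of all groups overlapped, with or without control replicate 4 at 13.4 FPKM. The other 5 control libraries reached 6.75 FPKM at most, which lay below the catgut 2 median.
The 6 edgeR log2 fold changes of Tek lay between -0.10 and 0.13, with adjusted p of at least 0.898. Control replicate 4 held up the control mean, which was 6.95 ± 3.26 FPKM with it (SD, n = 6) and 5.65 ± 0.829 without it (SD, n = 5). Without that library, catgut 2 was higher than control by 0.30 ± 0.12 on the log2 scale (edgeR adjusted p = 0.243, 0.0329 before adjustment).

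The receptors varied with the endothelial marker level of the library, the mean log2(FPKM + 1) of the 17 markers. Over the 24 libraries the Spearman correlation with this level was 0.82 for Tek, 0.72 for Flt1 and 0.63 for Kdr, against 0.49 for Vegfa and -0.11 for Angpt2, and these values describe libraries that share their scaling. The level itself had medians of 3.31, 3.49, 3.52 and 3.62 in control, treadmill, catgut 1 and catgut 2, and control replicate 4 had the highest level of all, 4.11. In catgut 2 against control, 5 of the 17 markers were higher and 1 lower with an unadjusted edgeR p under 0.05, as had 16.4% of all genes, 0 had an adjusted p under 0.05, and their summed level ranged from 465 to 853 FPKM in control and from 603 to 874 FPKM in catgut 2. The endothelial transcription factors Sox17 (0.73 ± 0.24) and Sox18 (-0.79 ± 0.28) met the criterion there in opposite directions, with edgeR adjusted p of 0.164 and 0.191. With the endothelial level as a covariate, Kdr in treadmill against control was 0.61 on the log2 scale (edgeR adjusted p = 0.329, 0.00325 before adjustment). Flt1 in catgut 2 against control was then 0.65 (adjusted p = 0.184, 0.0107 before adjustment) and Kdr in catgut 2 against control 0.38 (adjusted p = 0.391, 0.0874 before adjustment). With Myh7 as a covariate, a setting added after the data were seen, the same differences were 0.58, 0.48 and 0.25, at 0.00438, 0.0794 and 0.324 before adjustment, and the Spearman correlation of Flt1 with Myh7 was 0.63. Red blood cell markers moved with the groups too, with 6 of 9 listed, a summed range of 309 to 577 FPKM in control and 327 to 1865 FPKM in catgut 2, and with Hba-a2 and Hbb meeting the criterion in each catgut group against control (1.04 to 1.20 on the log2 scale), and their part in the receptor values was not tested.

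Because Flt1 and Kdr are read in the same libraries, their ratio shows how the 2 Vegfa receptors stood to each other. It was chosen after the values were seen and is a description with no test. Flt1 FPKM over Kdr FPKM was 1.299 ± 0.234 in control, 0.981 ± 0.0768 in treadmill, 1.43 ± 0.158 in catgut 1 and 1.61 ± 0.381 in catgut 2 (SD, n = 6 each). Its range was 0.888 to 1.10 in treadmill and 1.24 to 1.66 in catgut 1, so these groups did not overlap. Control ranged from 1.05 to 1.69 and catgut 2 from 1.10 to 2.27, and both overlapped with treadmill. Treadmill thus had about equal FPKM of both receptors, whereas Flt1 exceeded Kdr in every library of the other 3 groups. Flt1 alone had 2 catgut 1 libraries above every treadmill library, and Kdr alone had 3 below. How many other gene pairs separate 2 groups in this way is not given here.

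**Figure D3:**
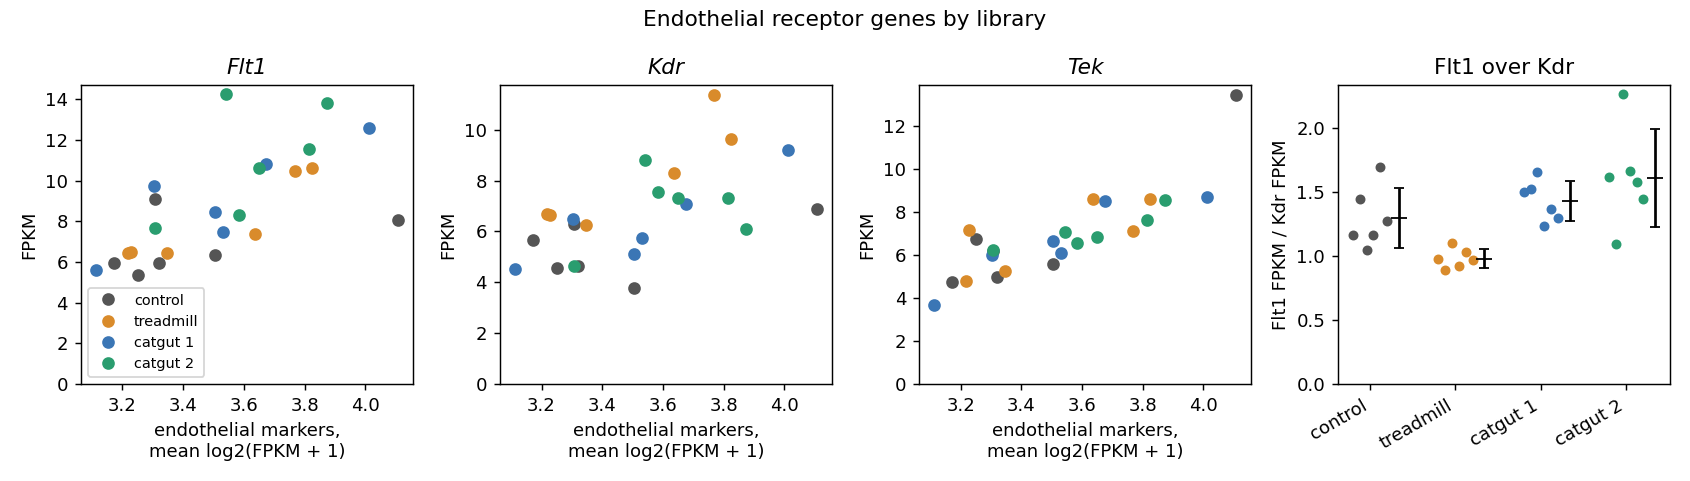
The first 3 panels plot FPKM of Flt1, Kdr and Tek (y axis) against the mean log2(FPKM + 1) of 17 endothelial markers (x axis), 1 point per library, coloured by group. The last panel plots Flt1 FPKM over Kdr FPKM by group with the mean and standard deviation, where the treadmill libraries lie between 0.888 and 1.10 and all catgut 1 libraries lie higher.

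Angpt2 (chr16:75966352-76016195, plus strand) encodes the ligand that antagonises Tek signalling. Its lowest, median and highest values were 3.27, 7.35 and 13.5 FPKM in control, 2.62, 5.91 and 6.31 in treadmill, 5.38, 7.10 and 9.07 in catgut 1, and 2.26, 4.39 and 7.79 in catgut 2. Catgut 1 libraries were all above 5 FPKM, whereas 3 of 6 catgut 2 libraries lay below every catgut 1 library.
Angpt2 means were 7.25 ± 3.57, 5.23 ± 1.44, 7.25 ± 1.60 and 4.69 ± 2.27 FPKM in control, treadmill, catgut 1 and catgut 2 (SD, n = 6 each). Catgut 2 was lower than catgut 1 with a log2 fold change of -0.67 ± 0.28, a ratio of 0.648 (edgeR p = 0.0330, adjusted p = 1.0, exact permutation p = 0.0606). Without any 1 of 5 libraries (catgut 1 replicates 4 and 6, catgut 2 replicates 1, 2 and 6) the edgeR p lay between 0.0640 and 0.0823, and it was 0.0566 with the Y-linked level, 0.0703 with the endothelial level and 0.0678 with Myh7 as a covariate. Catgut 2 against control gave a similar ratio of 0.648 at an edgeR p of 0.0909, and catgut 1 against treadmill gave 0.45 ± 0.23 (exact permutation p = 0.0541). Mcph1 lies across Angpt2 on the opposite strand at 0.169 to 0.672 FPKM, and reads of the 2 genes cannot be told apart where counting ignored strand.

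Angpt1 (chr7:81342280-81592206, minus strand) encodes the ligand that activates Tek. The lowest, median and highest Angpt1 values were 0.823, 1.26 and 1.60 FPKM in control, 0.741, 0.953 and 1.88 in treadmill, 0.503, 0.936 and 1.74 in catgut 1, and 0.419, 1.09 and 1.52 in catgut 2. The groups overlapped almost fully.
The log2 fold changes of Angpt1 lay between -0.23 and 0.03, each smaller than its standard error, with adjusted p of at least 0.767. Angpt2 exceeded Angpt1 in every library. The mean ratio of their FPKM was 5.65 in control, 5.10 in treadmill, 8.36 in catgut 1 and 4.51 in catgut 2, where 1 catgut 1 library at 18.0 raised the mean of its group above the median of 6.10.

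Apln (chrX:134856726-134866210, minus strand) encodes apelin, a peptide made by endothelial tip cells and also by contracting muscle. Its lowest, median and highest values were 0.444, 0.864 and 1.47 FPKM in control, 0.405, 0.780 and 1.34 in treadmill, 0.309, 0.535 and 0.787 in catgut 1, and 0.498, 0.933 and 1.97 in catgut 2. Catgut 1 was the lowest and narrowest group, with no library above 0.787 FPKM, and 4 of 6 catgut 2 libraries lay above all of it.
Apln means were 0.882 ± 0.367, 0.854 ± 0.366, 0.557 ± 0.169 and 1.01 ± 0.528 FPKM in control, treadmill, catgut 1 and catgut 2 (SD, n = 6 each). Catgut 2 was higher than catgut 1 by 0.89 ± 0.34 on the log2 scale, a ratio of 1.81 (edgeR p = 0.0224, adjusted p = 1.0, exact permutation p = 0.0455). Catgut 2 replicate 1, at 1.97 FPKM, carried part of this, and without it the difference was 0.50 with an edgeR p of 0.0788. Catgut 1 was lower than control with a log2 fold change of -0.64 ± 0.28, a ratio of 0.631 (edgeR p = 0.0395, adjusted p = 0.476, exact permutation p = 0.0736). Its edgeR p exceeded 0.05 without any 1 of 7 libraries (control replicates 4, 5 and 6, catgut 1 replicates 1, 3, 4 and 6), with a highest value of 0.101, and its p exceeded 0.05 under 7 of 13 other settings, 4 of them edgeR fits and 3 of them limma or the permutation test. Against treadmill, catgut 1 had a ratio of 0.652 at an edgeR p of 0.0589 (adjusted p = 0.740).

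Hif1a (chr6:96810907-96856052, plus strand) encodes the oxygen-regulated subunit of hypoxia-inducible factor. The lowest, median and highest Hif1a values were 2.99, 3.79 and 6.76 FPKM in control, 2.60, 2.80 and 5.996 in treadmill, 2.43, 3.80 and 5.57 in catgut 1, and 2.67, 3.95 and 5.60 in catgut 2. In control and in treadmill a single library stood above the other 5, and the groups overlapped.
Hif1a had log2 fold changes between -0.25 and 0.23 and adjusted p of at least 0.688 in all 6 comparisons. Treadmill was the lowest group with a mean of 3.42 ± 1.33 FPKM (SD, n = 6), and 4 of its 6 libraries lay below every control library. That difference, -0.25 ± 0.18, had an edgeR p of 0.196.

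The 8 genes did not vary as one block. Flt1 and Vegfa had a Spearman correlation of 0.77 over the 24 libraries, and between 0.60 and 1.0 within the 4 groups. Flt1 with Kdr had 0.67, and Angpt1 with Hif1a 0.67, whereas Angpt2 with Kdr had -0.57 and Angpt2 with Myh7 -0.59. The genes whose levels followed each member most closely, among those with a mean of at least 1 FPKM, were Akr1c15 (0.90) and Aqp1 (0.90), the water channel of capillary endothelium, for Flt1, Gba2 (0.83) for Vegfa, Rbpms2 (0.90) for Kdr, and the endothelial co-receptor Eng (0.88) for Tek. Hif1a followed Prpf4b (0.95), Angpt1 followed Ccdc59 (0.85), Angpt2 followed Dedd (0.77) and Apln followed RT1-N3 (0.72). After group means were subtracted, Nos3, the endothelial nitric oxide synthase, was second for both Vegfa (0.83) and Flt1 (0.88). These correlations share library scaling and describe the 24 libraries.

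The other genes of the pathway were taken from a list of VEGF, angiopoietin, apelin and Notch partners, of which 17 were tested. By the criterion of the study, 1 was higher in treadmill against control, 1 was lower in catgut 1 against treadmill, 2 were higher and 1 lower in catgut 2 against treadmill, 2 were higher and 1 lower in each catgut group against control, and 0 differed between the catgut groups. By edgeR 0 had an adjusted p under 0.05 in any comparison, with between 1 and 7 of the 17 under 0.05 before adjustment, where 3.26% to 16.4% of all genes were. Their median log2 fold change was 0.14 in treadmill against control and 0.31 in catgut 2 against control, where all genes had medians of -0.002 and -0.005. The list median was -0.050 and 0.13 in catgut 1 and catgut 2 against treadmill. It was 0.17 in catgut 1 against control and 0.14 in catgut 2 against catgut 1.
Dll4, the Notch ligand that Vegfa induces in tip cells, had a lowest, median and highest value of 2.25, 3.28 and 3.58 FPKM in control, 3.16, 4.85 and 7.94 in treadmill, 2.90, 4.65 and 8.30 in catgut 1 and 2.81, 6.28 and 8.37 in catgut 2. In each of the 3 trained groups 5 of 6 libraries lay above every control library. The log2 fold change against control was 0.73 ± 0.20 in treadmill (edgeR adjusted p = 0.356), 0.71 ± 0.21 in catgut 1 (adjusted p = 0.342) and 0.98 ± 0.23 in catgut 2 (adjusted p = 0.0784).
Aplnr, the apelin receptor, went the other way. It had a lowest, median and highest value of 2.72, 3.33 and 4.46 FPKM in control, 1.24, 1.89 and 4.27 in treadmill, 0.759, 0.943 and 2.60 in catgut 1 and 1.06, 1.72 and 3.11 in catgut 2. All 6 catgut 1 libraries lay below every control library, and 5 of 6 lay below every treadmill library. Aplnr was lower than control with a log2 fold change of -1.53 ± 0.28 in catgut 1 (edgeR adjusted p = 0.0998) and -0.96 ± 0.25 in catgut 2 (adjusted p = 0.103), and catgut 1 against treadmill gave -1.07 ± 0.39 (adjusted p = 0.542). Pgf, a further ligand of Flt1, was higher than control by 0.90 ± 0.34 in catgut 1 and 1.01 ± 0.33 in catgut 2, and higher than treadmill by 0.78 ± 0.32 in catgut 2. In that last comparison Ptprb, the phosphatase that restrains Tek, was also higher (0.65 ± 0.21) and the Notch target Hey1 was lower (-0.75 ± 0.31), with edgeR adjusted p of 0.264 and 0.400.

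**Figure D4:**
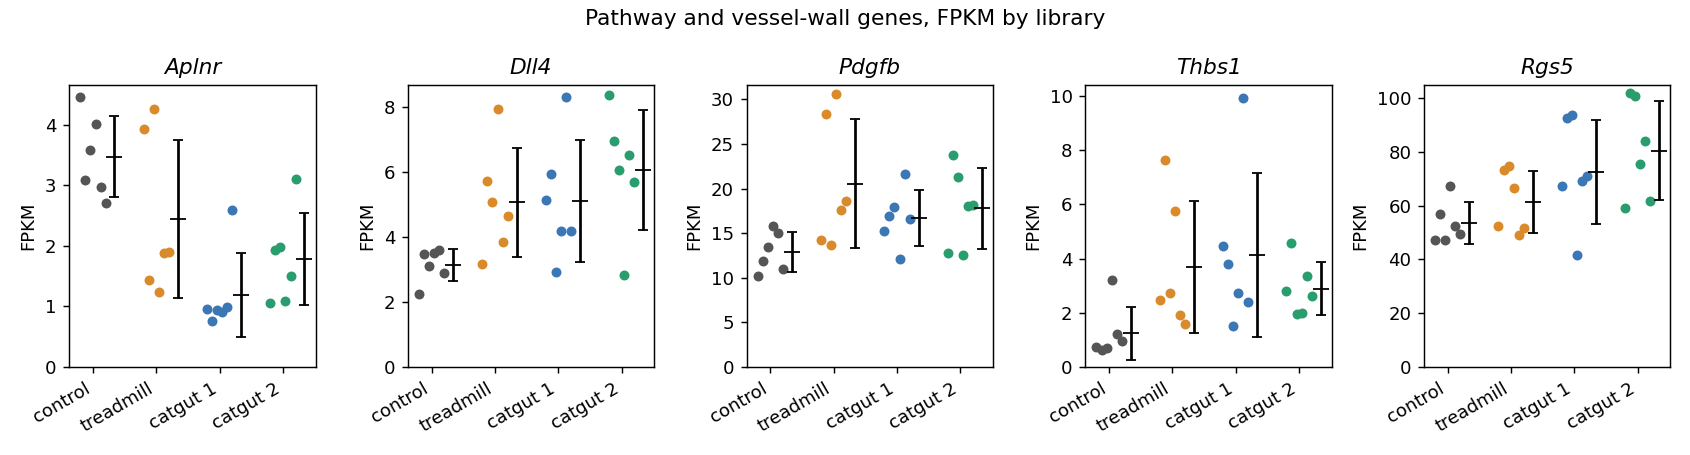
FPKM (y axis, linear from 0) of Aplnr, Dll4, Pdgfb, Thbs1 and Rgs5 in each library by group, with the mean and standard deviation of 6 libraries. Control libraries lie at 3.58 FPKM or less for Dll4 and at 2.72 or more for Aplnr, where 5 of 6 catgut 1 libraries lie below 1.

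Among 16 further angiogenic and angiostatic regulators tested, 2 met the criterion as higher in treadmill against control, 1 in catgut 1 against control and 2 in catgut 2 against control, and 2 met it as lower in each catgut group against treadmill. Their median log2 fold change was 0.19 in treadmill against control and 0.054 in catgut 2 against control. It was -0.12 and -0.20 in catgut 1 and catgut 2 against treadmill, with 4 of 16 positive in each. Thbs1, the angiostatic thrombospondin, was higher than control in all 3 trained groups, by 1.61 ± 0.44 in treadmill, 1.80 ± 0.48 in catgut 1 and 1.28 ± 0.36 in catgut 2 on the log2 scale, with edgeR adjusted p of 0.371, 0.302 and 0.128. Pdgfb, which recruits pericytes, was higher in treadmill than in control by 0.71 ± 0.19 (edgeR adjusted p = 0.354). Mmp14, a membrane protease, was lower than treadmill in catgut 1 (-1.05 ± 0.34) and catgut 2 (-0.85 ± 0.38), and Cxcl12, a chemokine, was lower in catgut 1 (-0.64 ± 0.18), with adjusted p of at least 0.356. Fgf1, a fibroblast growth factor, was higher in catgut 2 than in control (0.90 ± 0.31), and Angptl4, a secreted lipase inhibitor, was lower in catgut 2 than in treadmill (-1.08 ± 0.47), with edgeR adjusted p of 0.182 and 0.435.
Mural cell markers, 8 of 8 tested, included 1 gene with an edgeR adjusted p under 0.05. It was called in catgut 2 against control, where 0.508% of all genes were. In that comparison 6 of the 8 markers had positive log2 fold changes, with a list median of 0.18 against -0.005 for all genes. The markers Pdgfrb (-0.21) and Abcc9 (-0.03) were lower there. Rgs5, a pericyte gene, had a median of 50.8 FPKM in control and 79.8 in catgut 2, and was higher by 0.58 ± 0.11 (edgeR adjusted p = 0.0417) with 4 of 6 catgut 2 libraries above every control library. Its adjusted p was under 0.05 in 8 of 13 other settings and 0.110 with the replicate number as a block, and when 1 library was left out it stayed under 0.05 only without control replicate 2 or 4 or catgut 2 replicate 4 or 6, and reached 0.103 at most without any of the other 8. Acta2, the smooth muscle actin, was higher than control by 0.80 ± 0.28 in treadmill, 0.90 ± 0.35 in catgut 1 and 0.76 ± 0.25 in catgut 2, with adjusted p of 0.478, 0.439 and 0.173. Kcnj8, a potassium channel of mural cells, was higher in all 6 treadmill libraries than in every control library (0.74 ± 0.18, edgeR adjusted p = 0.354). Of the 8 markers 6 had positive log2 fold changes in treadmill against control, with a list median of 0.35 against -0.002 for all genes. Abcc9 (-0.25 ± 0.12) and Pdgfrb (-0.06 ± 0.23) were lower in treadmill than in control. Pdgfrb, the pericyte receptor for Pdgfb, was lower in catgut 1 than in control (-0.60 ± 0.23, adjusted p = 0.444).

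The oxygen-sensing genes around Hif1a did not move in one direction. Of 8 partners tested, Egln3, a prolyl hydroxylase that marks Hif1a for degradation, met the criterion as higher in catgut 1 (27.1 ± 7.22 FPKM) and in catgut 2 (26.6 ± 7.95) than in control (17.2 ± 4.24, SD, n = 6 each), with edgeR adjusted p of 0.342 and 0.141. Hif1an, which blocks Hif1a transactivation, had log2 fold changes against control of -0.35 ± 0.12 in catgut 1 and -0.31 ± 0.10 in catgut 2, with adjusted p of 0.401 and 0.165. No partner met the criterion in treadmill against control or in either catgut group against treadmill.
Among 17 hypoxia-responsive targets tested, the median log2 fold change was -0.17 in treadmill against control, 0.20 in catgut 1 against treadmill and 0.12 in catgut 2 against treadmill, against all-gene medians of -0.002, -0.011 and 0.0035. In catgut 2 against control the list median was -0.091, against -0.005 for all genes, with 6 of the 17 targets higher. In that comparison 0.508% of all genes had an edgeR adjusted p under 0.05. By edgeR 1 target had an adjusted p under 0.05 in any comparison, P4ha2, a collagen prolyl hydroxylase, which was higher in all 6 catgut 2 libraries (9.23 ± 1.07 FPKM) than in every control library (6.87 ± 0.561, SD, n = 6), by 0.42 ± 0.08 on the log2 scale (adjusted p = 0.0456). Its adjusted p was under 0.05 in 7 of 13 other settings and was 0.145 with the replicate number as a block. When 1 library was left out, it stayed under 0.05 only without control replicate 2 or catgut 2 replicate 4, and reached 0.120 at most without any of the other 10. Slc2a1, a glucose transporter, was higher in catgut 2 than in control (0.74 ± 0.28, adjusted p = 0.210). Ddit4, a stress-induced inhibitor of growth signalling, was lower in treadmill than in control (-1.13 ± 0.47) and higher in catgut 1 (1.07 ± 0.25) and catgut 2 (0.90 ± 0.33) than in treadmill, with adjusted p of 0.520, 0.193 and 0.337. Pfkfb3, an activator of glycolysis in endothelium and muscle, was lower in catgut 2 than in treadmill (-1.69 ± 0.34) and than in control (-1.82 ± 0.43), with adjusted p of 0.0651 and 0.0804, and all 6 catgut 2 libraries lay below every control library. In catgut 1 it was lower than treadmill by a log2 fold change of -0.94 ± 0.41 and than control by -1.07 ± 0.48, with adjusted p of 0.669 and 0.497.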

How the data were processed

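Poly(A) RNA from 24 quadriceps libraries was sequenced in pairs, and the deposited table gives, per gene, counts and FPKM values for each library. The submitters' notes name HISAT2 2.0 and StringTie 1.3.0, with which the authors made the counts and the FPKM values before deposit, and the genome build is not given in the sources used here. The labels mention adipose tissue in the extraction text, whereas the tissue is labelled quadriceps throughout. Counts of 4 and 8 were the commonest, so counting error is larger than the counts themselves imply. The floor was set at 12 counts, or 3 fragments. Totals per library bound the precision, and no 2 libraries held identical values.

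Groups were taken from the labels, 6 libraries each. Nothing in the labels says how rats were processed in batches, and rats are separate animals by the study's methods. The 14772 genes with a mean of at least 0.1 FPKM were fitted with edgeR 4.0.16 (TMM scaling, quasi-likelihood F-test, the 12 libraries of each pair of groups alone) under R 4.3.3, and p was adjusted by Benjamini-Hochberg over all of them. DESeq2 1.42.0 and limma 3.58.1 (trend, log2(FPKM + 1) or log2(FPKM + 0.1)) were alternatives, besides median-ratio scaling, no filter, a filter at 1 FPKM, 1 fit over all groups, the replicate block, counts divided by 4, a robust fit, covariates for the Y-linked, endothelial and Myh7 levels, and each library left out. The Myh7 covariate was chosen after seeing the data. The fits were tested on simulated data. Single genes were also compared by two-sided exact permutation tests of log2(FPKM + 1), unadjusted over the 48 tests.

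The genes and lists were chosen with earlier results of these data known. All 9 genes were to be named in each comparison, and of each list the genes that met the criterion of the study or an adjusted p under 0.05 plus at most the 2 higher and 2 lower genes with the smallest p, with fat and liver markers given by counts in the closing section. No lists were tested as sets. Figures were drawn with matplotlib 3.10.9.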

Additional observations from a re-analysis of the deposited data

Results flagged for a closer look

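Among 32 sets of 6 libraries (8 genes in 4 groups), 3 held a library far from the other 5 by Dixon's criterion, where chance alone marks about 1 set in 20. Tek in control replicate 4 was 13.4 FPKM, whereas the other 5 control libraries lay between 4.76 and 6.75. Hif1a in the same library was 6.76 FPKM, whereas the other 5 lay between 2.99 and 3.87. That library also had the highest endothelial marker level of the 24 (4.11) and the highest Angpt2 of the control group (13.5 FPKM). The third was Hif1a in treadmill replicate 2 at 5.996 FPKM, whereas the other 5 treadmill libraries lay between 2.60 and 3.69. Without it the treadmill mean of Hif1a was 2.90 ± 0.456 FPKM (SD, n = 5).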

How the results depend on the processing

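The 9 differences of the 8 genes with an edgeR p under 0.05 before adjustment kept their direction under the alternatives run. Of all 48 differences, 18 changed sign under at least 1 alternative or without 1 library, and their edgeR p was 0.0909 or more. Without control replicate 4, for example, catgut 1 against control went from -0.054 to 0.17 for Tek and from -0.033 to 0.11 for Hif1a, and catgut 2 against control from -0.021 to 0.11 for Hif1a. Angpt2 in catgut 2 against control went from -0.62 to 0.19 with Myh7 as a covariate. By adjusted p, DESeq2 called 1 of the 8 genes in treadmill against control and 1 in catgut 2 against control, where edgeR called 0, and leaving out 1 library gave between 0 and 1 in catgut 2 against control (1 without catgut 2 replicate 4). By the criterion of the study, catgut 1 against treadmill had 1 gene (Apln) with DESeq2 and 1 with Myh7 as a covariate instead of 0. Catgut 1 against control had 0 instead of 1 with 1 fit over all groups, with a filter at 1 FPKM (which removes Apln), with the replicate block, with the Y-linked level or Myh7 as a covariate and with limma at either pseudocount. Catgut 2 against control had 0 instead of 2 with Myh7 as a covariate. Catgut 2 against catgut 1 had 1 instead of 2 with a filter at 1 FPKM, the replicate block, or the Y-linked, endothelial or Myh7 level as a covariate. The cause of these shifts was not tested beyond the construction named. Leaving out 1 library gave between 0 and 1 gene in treadmill against control, catgut 1 against treadmill, catgut 2 against treadmill and catgut 1 against control, between 1 and 3 in catgut 2 against control, and between 0 and 2 in catgut 2 against catgut 1.

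Kdr in treadmill against control kept an unadjusted p under 0.05 in 14 of 14 other settings and without each of 12 libraries (log2 fold change 0.53 to 0.73). Vegfa in catgut 2 against treadmill did the same (0.37 to 0.56), and Flt1 in catgut 2 against control did so in 13 of 14 settings and without each of 12 libraries (0.48 to 0.84). Over all genes, the count with an adjusted p under 0.05 in catgut 2 against control ran from 12 to 492 when 1 library was left out (492 without catgut 2 replicate 4) and was 679 with DESeq2 and 0 with the replicate block, against 75. For treadmill against control, catgut 1 and catgut 2 against treadmill, catgut 1 against control and catgut 2 against catgut 1, DESeq2 called 113, 140, 300, 162 and 8 genes against 8, 7, 35, 3 and 1. By the criterion of the study, counts of all genes rose without a filter (791, 928, 1039, 1181, 1344 and 578) and fell with a filter at 1 FPKM (240, 205, 292, 362, 536 and 73), in the order treadmill against control, catgut 1 and catgut 2 against treadmill, catgut 1 and catgut 2 against control, and catgut 2 against catgut 1, where 421, 461, 555, 682, 880 and 184 were called with the filter used. No pairing by replicate number was seen, although this check cannot show that pairing was absent. Libraries with the same number in different groups had correlations of their deviations between -0.447 and 0.273, with a median of 0.045. For different numbers the median was -0.0068, and 2 of 24 libraries correlated best with their own number. Apln and Angpt1, at 64 to 387 and 45 to 226 counts per library, are the genes that depth limits most.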

Other observations

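The lymphatic endothelium was read from Prox1, the transcription factor that defines it, Lyve1, Pdpn and the receptor Flt4. Their summed level was low, with medians of 5.10 FPKM in control, 5.13 in treadmill, 4.08 in catgut 1 and 4.93 in catgut 2. By edgeR, 0 of the 4 genes had p under 0.05, adjusted or not, in any of the 6 comparisons, and their median log2 fold changes lay between -0.17 and 0.14.

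Markers of tissues outside the vessel wall also differed by the criterion of the study. Mb, the myoglobin of oxidative fibres, was higher in catgut 2 than in control (0.91 ± 0.25 on the log2 scale, edgeR adjusted p = 0.124), with 5 of 6 catgut 2 libraries above every control library. Of the 7 skeletal muscle fibre markers tested, 2 had positive log2 fold changes there, with a list median of -0.12. The fibre markers Myh1 (-0.51 ± 0.14) and Tnnt3 (-0.42 ± 0.12) were lower without meeting the criterion, with edgeR adjusted p of 0.122 and 0.124. S100a9, a neutrophil protein, was higher than control in treadmill (1.02 ± 0.42) and in catgut 2 (0.67 ± 0.30), with edgeR adjusted p of 0.520 and 0.279. The 9 leukocyte markers had a median log2 fold change of 0.57 in treadmill against control, with 9 positive. In catgut 2 against control their median was 0.019, with 5 positive. Against treadmill their median was -0.73 in catgut 1 and -0.52 in catgut 2, with 0 positive in each. By edgeR 0 of them had p under 0.05 in these 2 comparisons with treadmill. Of 6 adipocyte markers, 1 was lower in treadmill (Lep) and 2 in catgut 1 (Cidec and Adipoq) than in control. Of 6 liver markers, 6 were lower in each catgut group than in treadmill and 5 were lower in each than in control. Alb had a median of 0.0948 FPKM in control, 2.72 in treadmill, 0.0482 in catgut 1 and 0.0643 in catgut 2. Its highest control value was 135 FPKM, and 0 libraries of either catgut group lay below every control library. Against treadmill, all 6 libraries of each catgut group lay below every treadmill library for Alb. By edgeR 0 of the adipocyte and liver markers had an adjusted p under 0.05 in these comparisons.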
